A study of Mus musculus with 3 samples.

Results

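Klf9, Zbtb16, Zfp36l1, Fkbp5, Per1 and Dusp1 are regulator genes known to respond to glucocorticoid. The peaks of the forkhead transcription factors Foxc1 and Foxc2 at these 6 genes, of 21887 protein-coding genes in all, are described here. Binding was mapped by ChIP-seq, the sequencing of immunoprecipitated chromatin, in kidney glomeruli of C57BL/6 mice aged 8 weeks. There was 1 library with an antibody to Foxc1 and 1 with an antibody to Foxc2, and the input DNA library was not analysed here. The labels name no hormone treatment, mutation or replicate, and glomeruli were gathered with a magnet from kidneys perfused with magnetic beads. Glomeruli hold podocytes, mesangial cells and capillary endothelium, so the lists do not show in which cells a peak arose. A peak was given to a gene when its summit, the position of highest signal, lay in the RefSeq gene span or within 50 kb of either end. The members were chosen by their known steroid response and by peak clusters already seen in these lists. Their peak counts are therefore a description with no test.

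Glucocorticoids act through the glucocorticoid receptor, a nuclear receptor that the hormone releases from a chaperone complex and that then binds DNA and recruits coregulators. Its targets include feedback inhibitors, dampers of kinase signalling and transcription factors that carry the response further. Glucocorticoids are the standard treatment of nephrotic syndrome, a disease of the glomerular filter, and podocytes are among the cells they act on. Forkhead factors bind DNA through a winged-helix domain, and their preferred sites contain the letters TGTTTAC or close variants.

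The deposited lists have 5213 peaks for Foxc1 and 2881 for Foxc2. The height of a peak is given as the fold enrichment over local background from the authors' peak caller, and ranks count from the highest fold in the same list. Folds of different lists were not compared. Median folds were 4.90 in the Foxc1 list and 3.97 in the Foxc2 list, and sequencing depth is unknown. A Foxc1 summit was near 8, and a Foxc2 summit near 7, of 8 podocyte markers. For mesangial markers these counts were 5 and 2 of 5, for glomerular endothelial markers 2 and 1 of 6, for proximal tubule markers 2 and 2 of 5, and for immune markers 0 and 0 of 5. The share over all protein-coding genes was 29.3% for Foxc1 and 23.2% for Foxc2. Median spans in kb were 45.8 for podocyte, 64.3 for mesangial, 75.5 for endothelial, 52.0 for proximal tubule and 6.70 for immune markers. Over all protein-coding genes the median span was 17.2 kb, and gene length was not matched here. Peaks are not expression, so the marker counts say nothing of how many such cells were present.

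The 6 genes together had 16 Foxc1 summits and 17 Foxc2 summits, and each gene had at least 1 of each. Among all protein-coding genes, 29.3% had a Foxc1 summit, 23.2% a Foxc2 summit and 12.5% both. With summits inside gene spans only, 2 of the 6 genes had both, and Fkbp5 had no Foxc2 summit within 10 kb. Zfp36l1 had the most, with 5 Foxc1 and 4 Foxc2 summits. Klf9 and Per1 each had 2 Foxc1 and 4 Foxc2 summits. Zbtb16 had 3 and 2, Dusp1 had 2 and 2, and Fkbp5 had 2 and 1. Thus 5 of the 6 genes had 4 or more summits, against 4.07% of all protein-coding genes, a share from which nothing is read because the genes were picked for their peaks. Gene length varied widely, with 2.88 kb for Dusp1, 5.25 kb for Zfp36l1 and 184 kb for Zbtb16, and a long gene can collect more summits. Among genes of the same length decile, as many summits of both lists together were found for 0.183% of genes in the case of Zfp36l1, 0.822% for Klf9 and 0.731% for Per1. The share was 3.20% for Dusp1, 7.49% for Zbtb16 and 12.7% for Fkbp5.

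**Figure D1:**
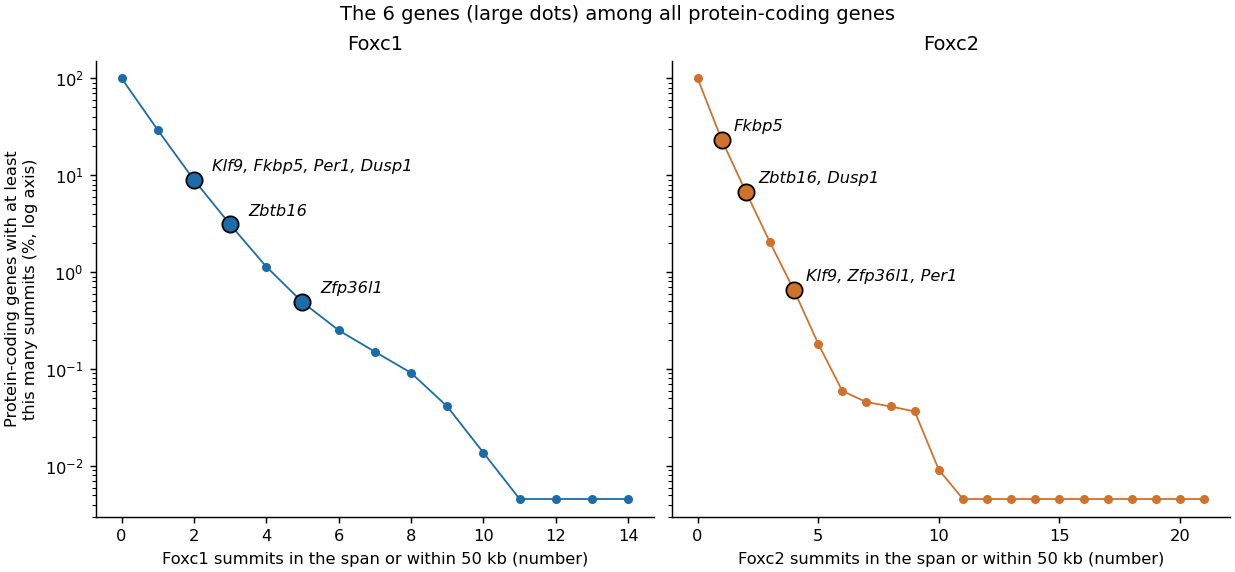
Percentage of protein-coding genes (vertical log axis) with at least the number of Foxc1 (left) or Foxc2 (right) summits on the horizontal axis, with the 6 genes as large dots. Zfp36l1 stands at 5 Foxc1 summits, which 0.489% of genes reached, and Klf9, Zfp36l1 and Per1 stand at 4 Foxc2 summits, which 0.649% of genes reached.

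When peaks of both lists were joined across gaps of up to 10 kb, all 6 genes had a cluster in reach, but not of the same kind. The largest held 7 peaks at Zfp36l1 (3 Foxc1 and 4 Foxc2, over 23.4 kb), 6 at Klf9 (2 and 4, over 6.94 kb) and 5 at Zbtb16 (3 and 2, over 17.1 kb). Dusp1 had 4 peaks (2 and 2) within 2.99 kb. Per1 had a pair of clusters of 3 peaks, 1 at the gene over 5.59 kb and 1 that lay 31.2 kb from it. Fkbp5 had 2 Foxc1 peaks joined over 7.56 kb and a lone Foxc2 peak elsewhere, so the name of peak cluster holds least well for it. With each lone peak counted as a cluster too, there were 6548 clusters in all. Of these, 1129 (17.2%) held at least 2 peaks, as many as that of Fkbp5. At least as many as that of Zfp36l1 were held by 6 (0.0916%).

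**Figure D2:**
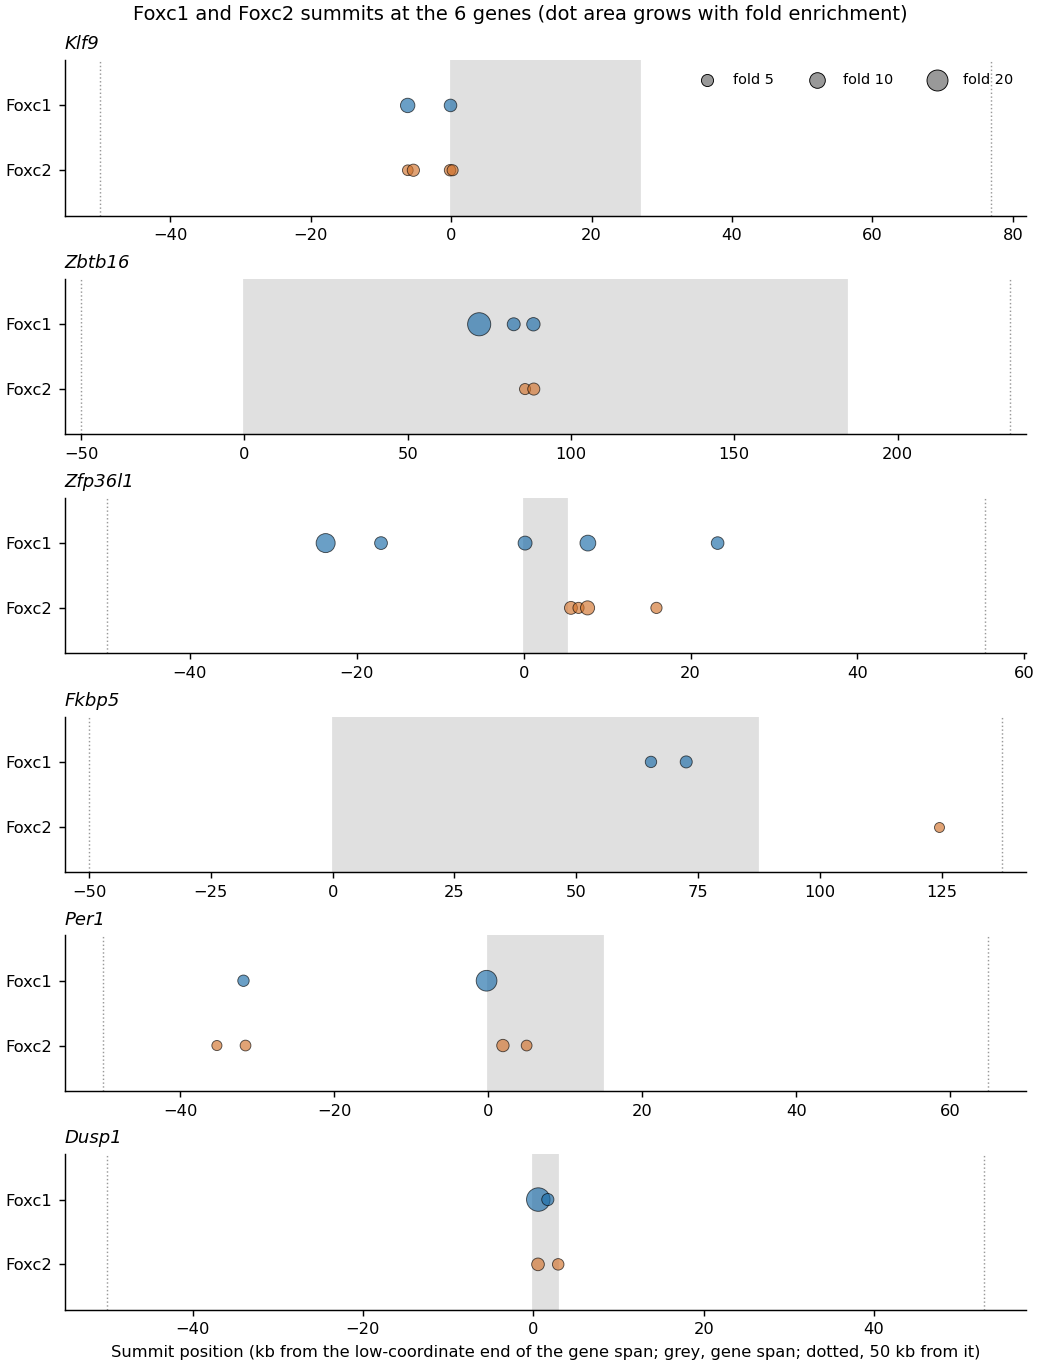
Summits of Foxc1 (upper row) and Foxc2 (lower row) at each gene, by distance in kb from the low-coordinate end of the gene span (grey), with dotted lines at 50 kb and dot area growing with fold enrichment. The summits of Klf9, Zbtb16 and Dusp1 sit close together, those of Zfp36l1 are spread from 23.7 kb on one side to 18.0 kb on the other, and the Foxc2 summit of Fkbp5 lies 37.0 kb away from the gene.

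Of the 16 Foxc1 peaks, 5 were overlapped by a Foxc2 peak by at least 1 bp, and 5 of the 17 Foxc2 peaks had a Foxc1 partner in turn (31.3% and 29.4%). Over the whole lists the shares were 8.20% and 14.8%. These pairs lay at Klf9 (2 pairs), Zbtb16, Zfp36l1 and Dusp1 (1 pair each), while Fkbp5 and Per1 had none. Among all protein-coding genes, 3.39% had such a Foxc1 peak in reach, against 4 of these 6 genes. The summits within a pair were 19 bp and 67 bp apart at Klf9, 32 bp at Dusp1, 39 bp at Zfp36l1 and 119 bp at Zbtb16. By summit distance the Zbtb16 pair was therefore the loosest of the 5, although 99.2% of its Foxc2 peak was covered by the Foxc1 peak. The overlap at Dusp1 took in 100% of the Foxc2 peak but 27.9% of the Foxc1 peak. That was the lowest share of a Foxc1 peak among the 5 pairs, against 64.2% at Zbtb16. Foxc2 summits stood a median of 1.12 kb from the nearest Foxc1 summit at the 6 genes, against 39.3 kb over the Foxc2 list, and 16 of the 17 lay within 10 kb of one, against 30.4% of the list. Since clusters of both antibodies were among the reasons for choosing these genes, the closeness is no independent result.

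Klf9 encodes a Kruppel-like zinc-finger transcription factor (chr19:23141226-23168129, mm10). It had peaks of both antibodies at its promoter and at another place upstream, and none over most of the gene. At the promoter, the Foxc1 peak (chr19:23140969-23141334) had a fold of 5.59 and its summit 82 bp upstream of the RefSeq start. The Foxc2 peak there (chr19:23140885-23141205) had a fold of 4.18 and its summit 149 bp upstream. Another Foxc2 peak, of fold 3.77, had its summit 217 bp downstream of the start. The upstream pair lay 6.18 kb (Foxc1, fold 8.14) and 6.16 kb (Foxc2, fold 3.38) upstream, and a Foxc2 peak of fold 5.17 lay 5.37 kb upstream. That pair fell 546 bp and 565 bp into 2410080I02Rik, which RefSeq lists as a long non-coding RNA gene. The upstream Foxc1 peak ranked 865 and the promoter peak 1894 of 5213. Of the Foxc2 partners, that of the upstream pair ranked 2388 and that of the promoter pair 1178 of 2881. The highest Foxc2 peak of the gene, rank 434, was the unpaired one 5.37 kb upstream. No further summit of either antibody lay nearer than 608 kb (Foxc1) and 792 kb (Foxc2) to the gene.

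Sequence was at hand for RefSeq promoter windows, 250 bases before to 50 bases after a start (GRCm38.p6, the same assembly as mm10). Of the 6 genes, 5 had such a window, and Per1 had 2 of them. Zbtb16 had no entry. The 250 bases upstream of the start are shown for Klf9, Dusp1 and the downstream start of Per1, because a Foxc2 summit lay within each. Capitals mark the forkhead core TGTTT on either strand and, in Klf9, the longer TGTTTAC that contains it. The stretches are chr19:23140976-23141225 on the plus strand for Klf9, chr17:26508473-26508722 on the minus strand for Dusp1 and chr11:69099902-69100151 on the plus strand for Per1.
Klf9: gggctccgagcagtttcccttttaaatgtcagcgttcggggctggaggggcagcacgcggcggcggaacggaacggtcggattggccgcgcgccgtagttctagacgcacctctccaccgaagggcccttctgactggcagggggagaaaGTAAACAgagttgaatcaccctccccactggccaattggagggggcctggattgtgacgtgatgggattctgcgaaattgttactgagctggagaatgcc
Dusp1: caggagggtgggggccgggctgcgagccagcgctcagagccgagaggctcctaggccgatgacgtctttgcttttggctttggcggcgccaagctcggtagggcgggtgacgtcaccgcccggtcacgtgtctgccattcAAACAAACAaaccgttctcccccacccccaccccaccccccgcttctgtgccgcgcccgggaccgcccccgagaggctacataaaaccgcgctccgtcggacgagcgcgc
Per1: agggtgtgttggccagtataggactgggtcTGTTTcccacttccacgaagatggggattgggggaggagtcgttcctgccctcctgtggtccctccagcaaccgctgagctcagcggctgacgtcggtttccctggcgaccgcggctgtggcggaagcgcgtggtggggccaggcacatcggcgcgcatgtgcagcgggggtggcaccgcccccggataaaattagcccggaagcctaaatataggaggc

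The forkhead motif TGTTTAC was found in the window of Klf9 alone among these 5 genes, read on the strand opposite to the gene (chr19:23141126-23141132). It covers bases 100 to 94 before the start and lies inside both peaks, with its centre 15 bp from the Foxc1 summit and 52 bp from the Foxc2 summit. Over 32851 RefSeq promoter windows, 3.65% held TGTTTAC on either strand, and a match is a description of the letters, not of a site. Its variant TGTTTGC, in 5.07% of all windows, was in none of the 6 windows of these genes. The shorter core TGTTT, chosen for the search after the letters had been seen, was in 50.5% of all windows. At Dusp1 it occurred 2 times, sharing 1 base, with centres 60 bp and 64 bp from the Foxc2 summit, and at the downstream start of Per1 1 time, 145 bp from it. The windows of Zfp36l1 and Fkbp5 and the upstream window of Per1 held none of these forkhead letters. Neither TGTTCT, one arm of the glucocorticoid receptor's site (19.0% of all windows), nor its palindrome (G, any base, ACA, 3 of any base, TGT, any base, C; 0.475% of all windows) was in any of the 6. Letters absent from these windows may still be present in the peaks outside them.

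**Figure D3:**
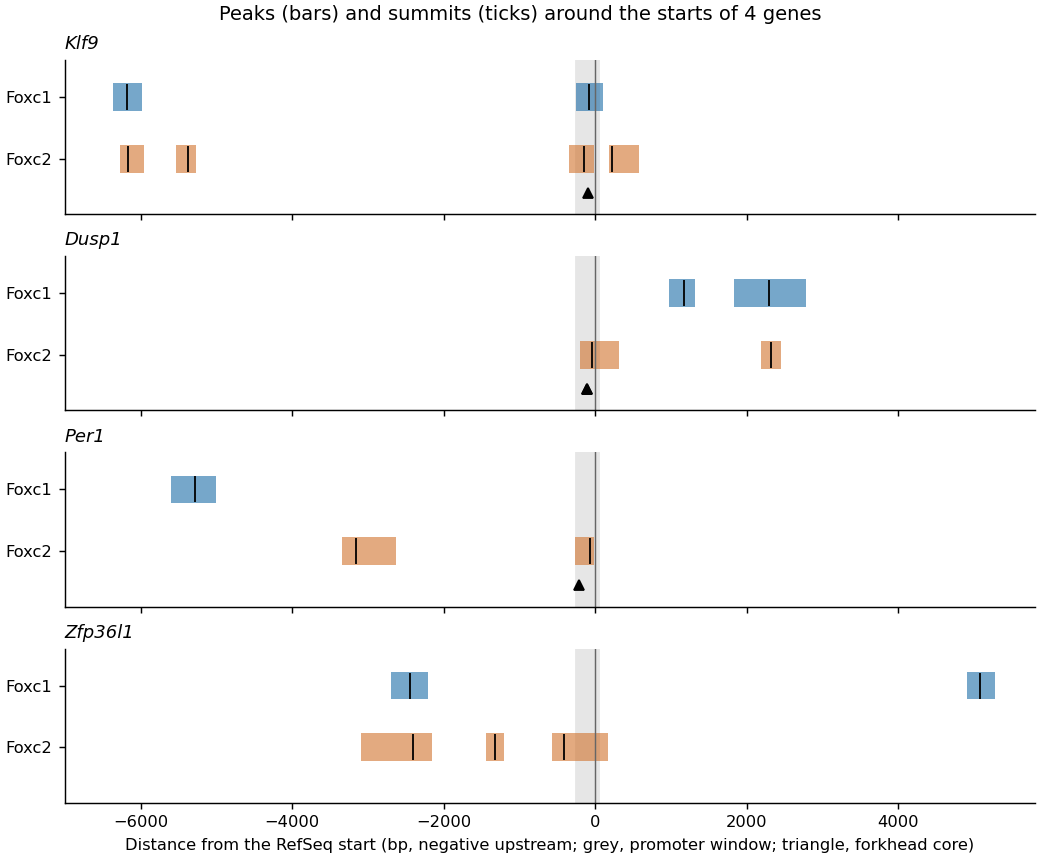
Peaks (bars) and summits (ticks) of Foxc1 and Foxc2 around the RefSeq starts of Klf9, Dusp1, Per1 (its downstream start) and Zfp36l1, in bp from the start with upstream negative. The grey band is the promoter window and triangles mark the forkhead core. Every panel has a Foxc2 peak touching the window, and Klf9 also has a Foxc1 peak there.

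Dusp1 encodes a dual-specificity phosphatase that switches off MAP kinases (chr17:26505591-26508472, minus strand). Its peaks lay at both ends of this short gene. The Foxc1 peak (chr17:26505683-26506644) with a fold of 25.7, rank 43 of 5213, had its summit inside the gene 586 bp from the far end and 2.30 kb downstream of the start. The Foxc2 peak at that place (chr17:26506022-26506289) had a fold of 5.73, rank 289 of 2881. The start itself had a Foxc2 peak of fold 4.29, with its summit 44 bp upstream, and no Foxc1 peak. A weaker Foxc1 peak, of fold 5.06, had its summit 1.18 kb downstream of the start. No other protein-coding gene was within 50 kb of Dusp1.

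Zfp36l1 encodes an RNA-binding protein that binds AU-rich elements and promotes decay of the mRNAs that carry them (chr12:80107760-80113013, minus strand). It had peaks on both sides, and those of Foxc2 lay upstream of the start only. The Foxc2 peak over the start (chr12:80112838-80113589) had a fold of 6.02 and its summit 416 bp upstream. The pair of shared peaks had summits 2.45 kb (Foxc1) and 2.41 kb (Foxc2) upstream, with a fold of 10.3 for Foxc1 (rank 528 of 5213, chr12:80115213-80115709) and 7.67 for Foxc2 (rank 74 of 2881, chr12:80115165-80116107). The remaining Foxc2 peaks were 1.32 kb and 10.7 kb upstream with folds of 3.86 and 3.95. Foxc1 had a further upstream peak at 18.0 kb with a fold of 5.70. It and the farther of these Foxc2 peaks lay inside the long non-coding RNA gene 2310015A10Rik. On the far side, a Foxc1 peak of fold 7.44 had its summit 171 bp inside the far end of the gene. Foxc1 peaks of fold 16.0 (rank 191) and 5.85 lay 23.7 kb and 17.1 kb beyond that end. The predicted coding gene Gm52006 lies just upstream. It holds the shared pair and the Foxc2 summit 1.32 kb upstream within its span, and all 9 summits were in its reach as well. All upstream summits of both antibodies were nearer to an end of Gm52006 than to Zfp36l1. For the Foxc2 summit 416 bp upstream of the start that distance was 151 bp.

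Per1 encodes a period protein of the circadian clock (chr11:69095108-69109965, plus strand). RefSeq promoter windows belonged to starts at 69098949 and 69100152, both inside the span. The Foxc1 peak of fold 19.5, rank 118 of 5213, lay at chr11:69094557-69095143, with its summit 232 bp outside the upstream end of the span and 4.07 kb upstream of the nearer of these starts. No Foxc2 peak overlapped it. The Foxc2 peaks of the gene lay further in, with a fold of 5.33 (rank 381 of 2881) at 1.95 kb upstream of the first start and a fold of 3.44 at 73 bp upstream of the second. The other cluster in reach, with a Foxc1 peak of fold 4.14 and Foxc2 peaks of fold 2.71 and 3.44, was nearest to Borcs6, and 1 of its Foxc2 summits lay 84 bp from an end of that gene. The reach of Per1 held 7 other protein-coding genes, the most among the 6 genes, and all 6 of its summits were in reach of at least 1 of them.

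Zbtb16 encodes a BTB zinc-finger transcriptional repressor also known as PLZF (chr9:48651797-48836225). All of its peaks lay deep inside the gene, at least 71.9 kb from the low-coordinate end and 95.8 kb from the other. The Foxc1 peak at chr9:48723388-48724086 had a fold of 24.8, rank 50 of 5213, and was not overlapped by a Foxc2 peak. The other Foxc1 peaks had folds of 6.08 and 6.64. The shared place, at chr9:48740097-48740498 for Foxc1 and chr9:48740241-48740500 for Foxc2, had folds of 6.64 and 4.99, and the remaining Foxc2 peak had a fold of 3.78. The strongest was also counted for Gm32280, a predicted coding gene within the span of Zbtb16 that lies 49.0 kb from it. All of the Zbtb16 summits were nearer to an end of Gm32280, at 49.0 to 65.7 kb, than to either end of Zbtb16. Whether the peaks fall in introns was not examined here.

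Fkbp5 encodes a co-chaperone of Hsp90 that lowers the hormone affinity of the glucocorticoid receptor and is itself induced by the hormone (chr17:28398753-28486149, minus strand). Its highest Foxc1 peak and its Foxc2 peak each stood below the highest of the same antibody at each of the other 5 genes. The Foxc1 peaks, of fold 4.11 (rank 3788 of 5213) and 4.90 (rank 2496), lay inside the gene 22.1 kb and 14.8 kb downstream of the start. The Foxc2 peak, of fold 2.60 and rank 2850 of 2881, lay 37.0 kb upstream of the start, inside the long non-coding RNA gene E230001N04Rik and nearest to Armc12 among coding genes. No peak of either antibody touched the promoter window.

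**Figure D4:**
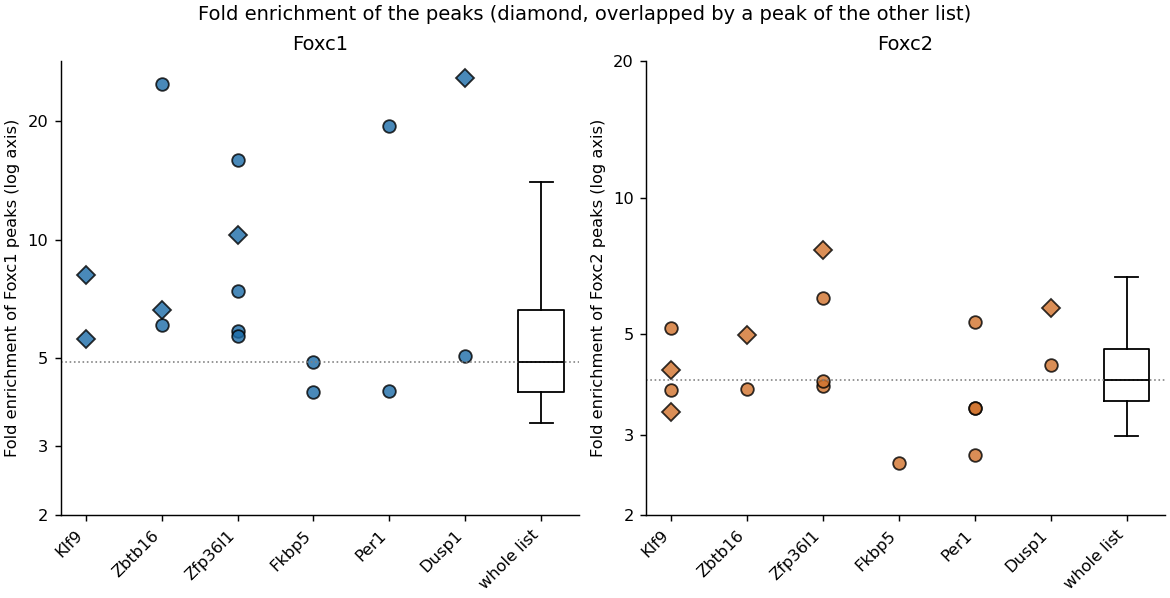
Fold enrichment (log axis) of each Foxc1 peak (left) and Foxc2 peak (right) by gene, with diamonds for peaks overlapped by the other list. The box spans the quartiles of the whole list, its whiskers the 5th to 95th percentiles, and the dotted line its median. Of the Foxc1 peaks 13 of 16 stand above the list's median, with Dusp1 and Zbtb16 highest, and of the Foxc2 peaks 8 of 17.

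Seen by height, the Foxc1 peaks at these genes ran from 4.11 to 25.7 with a median of 6.36, and the Foxc2 peaks from 2.60 to 7.67 with a median of 3.95. The strongest Foxc1 peaks of Zbtb16, Zfp36l1, Per1 and Dusp1 ranked 50, 191, 118 and 43 of 5213, and of these 4 the Dusp1 peak alone was overlapped by a Foxc2 peak. The best Foxc2 rank, 74 of 2881, was that of the shared Zfp36l1 peak. By position, 4 of 16 Foxc1 summits and 7 of 17 Foxc2 summits were at most 1 kb away from a coding gene's end (25.0% and 41.2%), against 10.9% and 52.4% of the lists. Starts were those with a RefSeq promoter window. A Foxc1 summit lay within 1 kb of the gene's own start at Klf9 and a Foxc2 summit at Klf9, Zfp36l1, Per1 and Dusp1, thus at 1 and 4 of the 5 genes with such a window. Among 27025 genes of the promoter table, 2.31% had such a Foxc1 summit and 6.33% such a Foxc2 summit. The Foxc1 summit 232 bp outside the upstream end of the Per1 span was not counted, as no promoter window belonged to that end. Of the 11 Foxc1 peaks without a Foxc2 partner, 2 lay at coding gene ends, 5 elsewhere inside coding gene spans and 4 between coding genes. Of the 12 Foxc2 peaks without a Foxc1 partner, 5 lay at coding gene ends, 3 inside coding spans and 4 between coding genes. Some of those between coding genes lay inside long non-coding RNA genes, as given above for Zfp36l1 and Fkbp5. The same classes were not counted for unpartnered peaks of the whole lists, so nothing is read from these counts.

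Close to the limit of 50 kb, the farthest summits counted were those of Fkbp5 (Foxc2, 37.0 kb) and Per1 (Foxc2, 35.2 kb, and Foxc1, 31.8 kb). The nearest summits left out were those of Dusp1 at 53.1 kb (Foxc2, fold 4.30, nearest to Ergic1) and 53.7 kb (Foxc1, fold 14.7, nearest to Neurl1b). Per1 followed at 54.6 kb (Foxc2, fold 3.44, nearest to Ctc1) and Zfp36l1 at 60.9 kb (Foxc1, fold 23.1). The last was higher than any Foxc1 peak counted for Zfp36l1 and had that gene as its nearest coding gene.

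Of 54 other genes of the glucocorticoid pathway, 25 had a Foxc1 summit, 21 a Foxc2 summit and 13 both (46.3%, 38.9% and 24.1%), beside the 29.3%, 23.2% and 12.5% of all protein-coding genes given above. Their median was 1 summit and a span of 14.8 kb, against 0 summits and 17.2 kb over all protein-coding genes, and 21 of the 54 had none. The list was drawn up with earlier results of these peaks known. Among 11 genes of the receptor, its enzymes, chaperones and coregulators, Foxc1 summits were near 5 and Foxc2 summits near 6. The receptor gene Nr3c1 itself, named after its values were seen, had 2 Foxc1 summits and 1 for Foxc2, the highest at folds of 5.63 and 2.36. Among 43 known target genes, 20 had a Foxc1 and 15 a Foxc2 summit.

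The targets with the most summits were Foxo3, a forkhead factor gene (3 Foxc1 and 2 Foxc2), and Irs2, which encodes an insulin receptor substrate (2 and 3). Txnip, the thioredoxin-interacting protein gene, and Sgk1, a kinase gene that promotes sodium uptake, each had 4 Foxc1 summits and 0 Foxc2 summits. Nfkbia, which encodes an inhibitor of NF-kappaB, had 2 and 2, and Mertk, a receptor kinase gene for clearing dying cells, had 1 and 3. Of the pathway genes with 3 summits in all, Sesn1 and Tsc22d3 had the highest Foxc1 folds. Sesn1, a sestrin gene, had 2 Foxc1 summits and 1 Foxc2 summit, with a highest Foxc1 fold of 32.9. Tsc22d3, which encodes the leucine zipper protein GILZ, had 3 and 0, with a highest Foxc1 fold of 14.4.

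**Figure D5:**
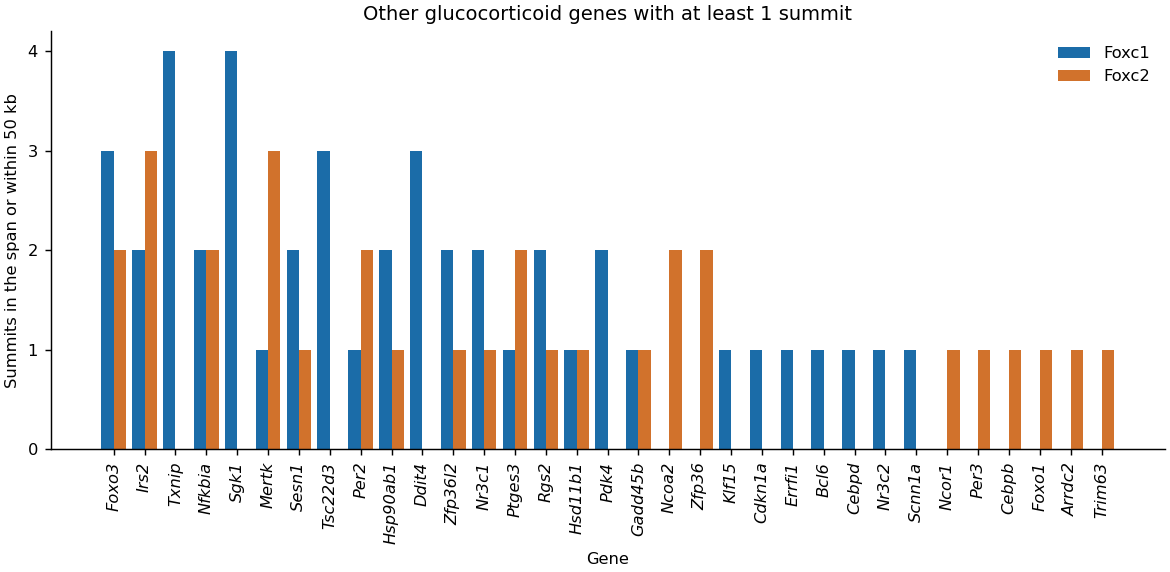
Number of Foxc1 and Foxc2 summits in the span or within 50 kb (vertical axis) for each of the other glucocorticoid pathway genes that had at least 1. Txnip and Sgk1 have 4 Foxc1 summits and no Foxc2 summit, and Irs2 and Mertk have 3 Foxc2 summits.

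The 7 relatives examined, of Zfp36l1, Per1, Dusp1 and Fkbp5, had 0 to 3 summits of both lists together. Zfp36l2 had 2 Foxc1 summits and 1 Foxc2 summit, and Zfp36 had 0 and 2. Per2 had 1 and 2, with the Foxc1 peak, of fold 12.2, overlapped by a Foxc2 peak, and Per3 had 0 and 1. Dusp4 had 2 and 0 and Dusp6 had 1 and 1. Fkbp4, which encodes the related Hsp90 co-chaperone, had none.

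The genes most like the members were found by summing the absolute differences in Foxc1 summits, Foxc2 summits and shared Foxc1 peaks over these 2 libraries. For Klf9, Dock5 had the same values (difference 0), and Zswim4 and Jup differed by 1, as did 26 genes in all. For Zfp36l1 no gene had the same values, and Hexim1, Hexim2 and Tet3 were 3 of 8 genes at a difference of 1, each with 4 and 4 summits. Matn4, Myo1a and Inf2 were 3 of 6 genes with the values of Per1.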

How the data were processed

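One peak list per antibody was analysed, with groups taken from the sample titles. The submitters' processing notes name Bowtie2, MACS2 and the mm10 build. Their versions and settings, the control library and any pooling were not given in the sources used here. Each deposited list gives, per peak, the fold enrichment over local background (a ratio) and the minus log10 of the p-value and q-value (−log10), all by the authors' peak caller. The deposited score column, which is 10 times that q-value's minus log10 cut to a whole number, was left out. All peaks had a q-value under 0.05.

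Summits were assigned to RefSeq spans of GRCm38.p6 on chromosomes 1 to 19, X and Y. Overlap counted from 1 bp, gene ends to 1 kb, and clusters across gaps of 10 kb. Chromosome 18 had no promoter windows here and is left out of counts at starts. Motif windows planned around summits were replaced by RefSeq promoter windows, as no genome sequence was used. Shares carry exact Clopper-Pearson 95% intervals where printed, for counting error only.

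With 1 library per antibody there is no replicate error, and no test was run. The members, lists and alternatives were chosen with earlier results of these data known. Named were the 6 genes, their relatives, the genes at each peak, the 8 other pathway genes with the most summits (ties by highest Foxc1 fold) and 3 genes of most similar counts for each of the 3 members with the most summits. The assignment and overlap steps were tested on simulated data. Python 3.11.15, pandas 2.3.3 and numpy 2.4.6 were used.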

Additional observations from a re-analysis of the deposited data

How the results depend on the processing

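The 6 genes' totals, their overlaps, clusters and gene-end counts, and the counts over the other glucocorticoid genes, were recomputed under other distances, peak thresholds, overlap rules and joining distances. Of 46 recomputed values, 31 stayed within 1.5 times the value reported and 15 did not. With summits inside gene spans only, the 6 genes had 8 Foxc1 and 6 Foxc2 summits, 2 genes had both, and 11 and 10 of the other genes had a Foxc1 or a Foxc2 summit. With peaks of fold 5 or more, Foxc2 summits dropped to 5, overlapped peaks to 2 in either list, and the other genes to 15 (Foxc1) and 4 (Foxc2). With a minus log10 q of 5 or more, Foxc2 summits numbered 9 and other genes with one 11. Counting a peak only for the coding gene with the nearest end left 10 Foxc1 and 8 Foxc2 summits. All Zbtb16 peaks then went to Gm32280, all Foxc2 peaks of Zfp36l1 to Gm52006 and the Foxc2 peak of Fkbp5 to Armc12. Zbtb16 thus kept no summit, and Zfp36l1 and Fkbp5 kept no Foxc2 summit. Within 2 kb of a gene end lay 7 Foxc1 summits. Distances and thresholds act by construction, since they set which peaks enter. Of 60 values for single genes, 36 stayed within 1.5 times. Within 10 kb, Zfp36l1 had 2 and Per1 had 1 Foxc1 summit, and Per1 had 2 and Fkbp5 had 0 Foxc2 summits. With a minus log10 q of 5 or more, Foxc2 summits numbered 2 at Klf9, 1 at Zbtb16, 0 at Fkbp5 and 1 at Per1. With fold 5 or more, Foxc1 summits numbered 0 at Fkbp5 and 1 at Per1, and Foxc2 summits 1 at Klf9, Per1 and Dusp1, 2 at Zfp36l1 and 0 at Zbtb16 and Fkbp5. Inside gene spans, Foxc1 summits numbered 0 at Klf9 and Per1 and 1 at Zfp36l1, and Foxc2 summits 1 at Klf9 and Dusp1, 2 at Per1 and 0 at Zfp36l1 and Fkbp5. Motif windows of other sizes around summits were not run, since promoter windows replaced them, and no library could be left out, with 1 per antibody. No paired analysis was possible because there is 1 library per antibody and no test. Depth is unknown, and weak sites can be missed in a shallower library.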

Other observations

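Among RefSeq promoter windows, the forkhead letters TGTTTAC of the Klf9 promoter were in a larger share of those holding a Foxc1 summit than of those holding a Foxc2 summit. Sequence at the summits outside such windows was not examined. Of 221 RefSeq promoter windows holding a Foxc1 summit, 68 contained TGTTTAC on either strand (30.8%, exact Clopper-Pearson 95% interval 24.8 to 37.3%). Of 808 windows holding a Foxc2 summit, 26 did (3.22%, interval 2.11 to 4.68%), close to the 3.65% of all windows. The 32851 windows belong to 27025 genes, and the intervals count any windows that share a summit as if they were independent. The Klf9 window holds summits of both antibodies and is among those with the motif. The shorter core TGTTT was in 69.2% of the windows with a Foxc1 summit and 25.6% of those with a Foxc2 summit, against 50.5% of all windows. The variant TGTTTGC was in 5.43% of the windows with a Foxc1 summit (interval 2.84 to 9.29%) and 1.61% of those with a Foxc2 summit, against 5.07% of all windows. The median GC content was 59.0% in windows with a Foxc1 summit and 70.3% in windows with a Foxc2 summit, and the part of base composition in these shares was not tested. The windows of Dusp1, Fkbp5, Klf9 and Per1 had GC contents from 63.3 to 70.7% and that of Zfp36l1 had 52.0%, against a median of 52.7% over all windows.

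Starts and far ends of genes can be told apart where RefSeq gives a strand. Within 1 kb of a start lay 11.1% of 5018 Foxc1 summits (exact 95% interval 10.2 to 12.0%) and 53.7% of 2786 Foxc2 summits (interval 51.9 to 55.6%). Within 1 kb of the far end of a coding gene lay 1.95% of the Foxc1 and 2.01% of the Foxc2 summits. Starts were those of every promoter window, with non-coding genes and further starts of a gene included. Far ends were counted once per coding gene with a window, so shares at starts and far ends are not like for like. Near the 6 genes 2 of 16 Foxc1 and 8 of 17 Foxc2 summits lay within 1 kb of a start of any gene (12.5% and 47.1%). These were close to the shares of the lists. Not all were starts of the 6 genes themselves. A Foxc1 and a Foxc2 summit lay at the start of 2410080I02Rik, and Foxc2 summits also at those of E230001N04Rik and Borcs6. At a far end of a coding gene lay 2 of the 16 and 3 of the 17 (12.5% and 17.6%), which are few summits at genes picked for their peaks. The Foxc1 summits at a far end were those of the peaks of fold 25.7 at Dusp1 and 7.44 at Zfp36l1, 586 bp and 171 bp inside it. Of the Foxc2 summits, 1 lay 554 bp inside the far end of Dusp1. The others were those 416 bp and 1.32 kb upstream of the Zfp36l1 start. They lay 151 bp and 757 bp from the far end of Gm52006, and the first was also within 1 kb of the Zfp36l1 start.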
